A study of Mus musculus with 12 samples.

Results

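Transcripts annotated as targets of nonsense-mediated mRNA decay (NMD) were followed in mouse liver after depletion of the NMD factor Upf3b. They were all transcripts quantified in these livers that carry the nonsense_mediated_decay biotype in GENCODE M21, the annotation of mouse build GRCm38. This gave 5022 of 92468 transcripts, which belong to 3273 genes and are called NMD-annotated transcripts here. No measured value decided which transcripts belong to the set, but the set was chosen with earlier results of these data known. RNA-seq was performed on 12 livers of hFIX-R29X mice, a hemophilia B strain without endogenous F9 that expresses a human factor IX minigene bearing a nonsense mutation under the human transthyretin promoter. 4 mice received the vehicle DPBS, 4 received Control-GalNAc-ASO, a scrambled antisense oligonucleotide (ASO), at 15 mg/kg, and 4 received Upf3b-GalNAc-ASO at 10 mg/kg. GalNAc is a sugar ligand that directs the ASO to hepatocytes. In each group replicates 1 and 2 were female and replicates 3 and 4 were male, all were dosed 6 times at intervals of 5 days from an age of 8 to 14 weeks, and livers were taken 48 h after the last dose. The labels list each liver as a separate animal without stating cage, litter or batch, so p-values measure the spread between these livers. The ASO doses of the control and Upf3b groups differed, and dose and target cannot be told apart.

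NMD degrades mRNAs on which the ribosome stops too early. In mammals a stop codon is usually read as premature when an exon-exon junction lies well downstream of it, because the exon junction complex left there by splicing is not displaced by the ribosome. UPF3B, bound to that complex, links it through UPF2 to the helicase UPF1, which is phosphorylated by SMG1 and then recruits factors such as SMG5 and SMG6 to destroy the mRNA. Many such transcripts come from normal genes by alternative splicing, above all from genes of splicing factors and ribosomal proteins, some of which limit their own level in this way.

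The stop codons of 8 NMD-annotated transcripts on which the results below turn are shown first, 30 bases each from 12 bases upstream of the stop codon, with the stop codon in capitals, read from the GRCm38 transcripts of GENCODE M21 in the direction of transcription. Rps19-205 and Psma3-201 are named as called rises, Slc47a1-202, Ube2e2-209, Luc7l2-204 and Trf-205 as called falls and Serpinf1-207 for a usage call by diffSpliceDGE, a test that was later not relied on. Abhd11-204 was named, and the sequences of it and of the 4 falls were added, after their values were seen. The sequences of Abhd11-204 and Slc47a1-202 run across an exon junction.
Rps19-205: caacacagcctcTGAaaaccaaaaggtcaa
Psma3-201: tgggatcagatgTAAagatggtgttgtgtt
Abhd11-204: ctgcagaggacaTAAgcccggtaggaacca
Serpinf1-207: ggtaaccaagttTGActcgagaaagacgac
Slc47a1-202: cagatccttgcaTGAaccaagtacaatctg
Ube2e2-209: acagccagggtgTAAtctgtctggacatcc
Luc7l2-204: cttgaaagtccaTGAcctggctttaagagc
Trf-205: gccagtgtggtcTAGtgcctgtcatggcag
The stop codon of Rps19-205 lies at chr7:24886151-24886153 on the plus strand, in exon 4 of 7, outside the exons of the coding transcripts of the gene. That of Psma3-201 lies at chr12:70983340-70983342 (plus strand), in exon 3 of 11 and within sequence that coding transcripts of Psma3 translate. The stop codon of Abhd11-204 is at chr5:135011244-135011246 (plus strand, exon 3 of 5) and that of Serpinf1-207 at chr11:75414028-75414030 (minus strand, exon 3 of 5). Slc47a1-202 stops at chr11:61366883-61366885 on the minus strand, in exon 7 of 18. Ube2e2-209 stops at chr14:18586947-18586949 (minus strand, exon 3 of 4) and Luc7l2-204 at chr6:38585073-38585075 (plus strand, exon 7 of 13). The stop codon of Trf-205 is at chr9:103219826-103219828 (minus strand, exon 3 of 6). The shortest of these 8 reading frames, in Psma3-201, has 40 codons and ends 595 bases before the last exon junction, and in Ube2e2-209 that distance is 96 bases.

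Estimated counts per liver summed to 13277892 to 17054313 in the Upf3b-ASO group and to 17642996 to 20387682 in the other 8 livers. Levels are given as CPM, the count scaled by the TMM-adjusted total of the liver, without regard to transcript length. The targeted gene checked the labels. The 4 vehicle livers held 10.03, 9.0, 13.01 and 10.46 CPM of Upf3b, which has no NMD-annotated transcript, and the livers given Control-ASO held 7.97, 9.16, 7.64 and 11.7 CPM. Upf3b-ASO left 1.49, 0.629, 0.982 and 0.671 CPM, below every other liver (log2 fold change against Control-ASO -3.28 ± 0.27 SE, edgeR adjusted p = 0.000102). The 10 hepatocyte markers summed to between 72640 and 114631 CPM in every liver, those of Kupffer, endothelial, stellate and bile duct cells to at most 543 CPM each and those of lymphocytes to at most 5.87 CPM. Blood markers stood apart in Control-ASO replicate 1, with 1520 CPM of erythroid and 41.1 CPM of neutrophil markers against at most 352 and 8.19 CPM in the other 11 livers, and their part in the results was not tested. Control-ASO replicate 3 stood apart from its group, with 336 CPM of the stress gene Atf3 against at most 5.10 CPM in the other 11 livers, so the main counts and medians and several named values are also given without it. In whole liver RNA, fewer cells of a type and less RNA per cell cannot be told apart.

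Most NMD-annotated transcripts were scarce. No liver had a count for 521 of the 5022, and 2035 (40.5%) in 1562 genes reached a mean of 10 estimated counts over the 12 livers and were tested, among 34548 transcripts of all biotypes. Their median mean count was 33.7, against 88.6 for the tested protein-coding transcripts, and 35.0% of them were listed at 0 in at least 1 liver, against 18.04% of the coding ones. The share of an NMD-annotated transcript in the TPM (a transcript level scaled by Salmon for length) of its gene had a median of 10.8%, with quartiles of 4.96% and 22.0%, and exceeded 50% for 137 of them. Isoforms of a gene share most of their sequence, so the split of reads between them is an estimate by Salmon, whose own error was not used here.

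Few NMD-annotated transcripts were called higher in Upf3b-ASO livers. Against Control-ASO, 3 of 2035 were higher and 4 were lower (edgeR quasi-likelihood test, adjusted p under 0.05), which is 0.147% and 0.197%. Over all 34548 transcripts 0.298% were called higher and 0.585% lower, so by this test neither share exceeded the background. With limma on log2(TPM + 1) 10 were higher and 4 lower (0.491% and 0.197%), against 0.246% and 0.339% of all, so that the share called higher was above the background there. At an unadjusted p under 0.05, 115 NMD-annotated transcripts (5.65%) were higher and 97 (4.77%) lower, against 5.46% and 7.01% of all transcripts. The median log2 fold change was 0.03 for the NMD-annotated transcripts and -0.04 for all, and 52.0% of them had a log2 fold change above 0 against 47.1% of all. Without Control-ASO replicate 3 the medians were 0.10 and -0.0044, and 13 were called higher and 15 lower, against 0.886% and 1.59% of all transcripts. Without Control-ASO replicate 1, 7 were called higher and 0 lower by edgeR (0.344% and 0%), against 0.197% and 0.304% of all. In that fit the share called higher was above the background. DESeq2 was more liberal and called 40 higher and 37 lower, against 2.58% and 3.25% of all, and edgeR with the replicate number as a block called 2 and 1, against 0.119% and 0.275%. At the level of whole genes, 53 of the 1562 genes with a tested NMD-annotated transcript were higher and 59 lower by edgeR, where 2.91% and 3.49% of all 14157 genes were called. The test had limited reach for such scarce transcripts. The 95% interval of a log2 fold change extended 1.27 to each side at the median over NMD-annotated transcripts and 0.772 over coding ones.

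**Figure D1:**
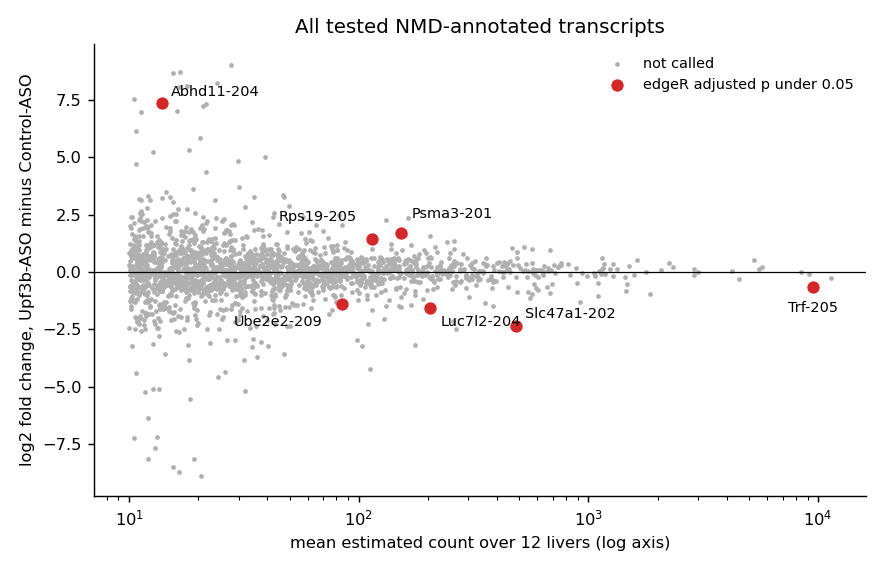
Log2 fold change of Upf3b-ASO over Control-ASO livers (y axis) against the mean estimated count over 12 livers (x axis, log scale) for the 2035 tested NMD-annotated transcripts. Each point is a transcript, and the 7 with an edgeR adjusted p under 0.05 are red and named. The points spread more widely toward low counts, and the fitted value of Abhd11-204, over Control-ASO livers at or near 0, gives no size.

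Rps19-205 rose most clearly. Rps19 encodes a protein of the small ribosomal subunit, and Rps19-205 ends after 72 codons, 273 bases before the last exon junction. Treated livers held 14.5, 13.2, 10.4 and 11.8 CPM, where Control-ASO livers had 4.93, 5.71, 3.59 and 4.06 and DPBS livers 4.30, 3.66, 1.96 and 3.58. All 4 treated livers of both sexes lay above the other 8, with no overlap. The log2 fold change was 1.46 ± 0.20 (SE, 95% interval 1.02 to 1.90) against Control-ASO and 1.90 ± 0.20 against DPBS (edgeR adjusted p = 0.0121 and 0.0033). Rps19 as a whole differed by 0.27 ± 0.09 (log2, edgeR adjusted p = 0.11). Rps19-205 made up 5.53 ± 1.08% of the TPM of its gene after Upf3b-ASO, against 2.38 ± 0.62% after Control-ASO and 1.87 ± 0.48% after vehicle (SD, n = 4 each), and the lowest treated liver (4.56%) was above the highest of the others (3.10%). Ribosomal protein genes have processed copies elsewhere in the genome, and how reads were divided with such copies was not tested.

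Psma3-201 accumulated as well. Psma3 encodes an alpha subunit of the 20S proteasome. Its level was 13.5, 17.2, 16.3 and 12.7 CPM in the treated group, 4.81, 3.25, 6.43 and 3.64 CPM under Control-ASO and 7.43, 11.6, 4.04 and 5.58 CPM under vehicle. The treated livers again lay above the other 8, but DPBS replicate 2, at 11.6 CPM, came close to the lowest treated liver. The rise was called against Control-ASO (log2 fold change 1.71 ± 0.32, edgeR adjusted p = 0.0432) and missed the threshold against DPBS (1.10 ± 0.32, edgeR adjusted p = 0.206). The Psma3 gene differed by 0.16 ± 0.11 (log2, edgeR adjusted p = 0.383), and the share of Psma3-201 in it was 7.56 ± 0.97% in Upf3b-ASO livers against 2.55 ± 0.87% in Control-ASO and 4.01 ± 1.43% in DPBS livers.

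Abhd11-204, a transcript of a mitochondrial hydrolase gene, was called higher against Control-ASO livers, in which it was almost undetected. DPBS livers had 1.10, 1.44, 1.44 and 0.970 CPM of it and treated livers 1.83, 0.826, 1.05 and 0.962 CPM, and 3 of 4 Control-ASO livers were listed at 0, with a trace under 1 count in replicate 2. The treated and DPBS livers overlapped, with a log2 difference of -0.08 ± 0.42 (edgeR adjusted p = 0.99). Against a floor of 3 counts per Control-ASO library the Upf3b-ASO mean was at least 6.72-fold higher and the DPBS mean at least 7.13-fold higher, so this call did not separate Upf3b-ASO from vehicle-treated liver. Serpinf1-207, from the gene of pigment epithelium-derived factor, had a like order of groups. Control-ASO livers held 7.94, 10.8, 8.88 and 3.71 CPM of it, DPBS livers 16.2, 17.8, 19.1 and 14.3 CPM and treated livers 14.8, 26.3, 16.9 and 21.7 CPM, with a log2 fold change of 1.37 ± 0.29 against Control-ASO (edgeR adjusted p = 0.068) and 0.24 ± 0.28 against DPBS (0.905). Without Control-ASO replicate 3 the former was 1.53 and passed the test (edgeR adjusted p = 0.0471).

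The 4 NMD-annotated transcripts that fell belonged to genes that fell as a whole. Slc47a1-202 comes from the gene of the organic cation exporter MATE1. Treated livers held 9.14, 6.39, 8.33 and 3.46 CPM of it, those given Control-ASO 53.6, 44.1, 11.3 and 33.9 CPM and those given vehicle 38.8, 32.1, 39.9 and 35.3 CPM. The treated livers were below all others, the nearest being Control-ASO replicate 3, and the log2 fold changes were -2.33 ± 0.40 for the transcript and -2.94 ± 0.27 for the gene (edgeR adjusted p = 0.0304 and 0.000183). Without that liver the transcript differed by -2.63 ± 0.28 (log2, edgeR adjusted p = 0.00269). Ube2e2-209, from a ubiquitin-conjugating enzyme gene, was at 2.169 ± 0.46 CPM in Upf3b-ASO, 5.71 ± 1.56 CPM in Control-ASO and 6.16 ± 2.12 CPM in DPBS livers (SD, n = 4), without overlap. Its log2 fold change was -1.40 ± 0.24 and that of Ube2e2 -1.09 ± 0.21 (edgeR adjusted p = 0.0284 and 0.0132). Luc7l2-204, from the gene of a U1 snRNP-associated splicing factor, was at 7.58, 5.80, 5.35 and 3.71 CPM in treated livers and between 10.7 and 25.9 CPM in the other 8. Its log2 fold change of -1.54 ± 0.29 stood beside -1.46 ± 0.20 for the gene (edgeR adjusted p = 0.0418 and 0.00186), and its share of the gene was 11.1 ± 1.03%, 10.97 ± 1.40% and 11.2 ± 2.44% in DPBS, Control-ASO and treated livers. Trf-205, from the gene of the plasma iron carrier transferrin and one of the most abundant NMD-annotated transcripts, was at 418, 426, 410 and 341 CPM in treated livers and between 450 and 747 CPM elsewhere. It differed by -0.63 ± 0.12 and Trf by -0.66 ± 0.13 (log2, edgeR adjusted p = 0.0404 and 0.0137), while its share of the gene was 6.51 ± 0.33%, 6.53 ± 0.32% and 6.46 ± 0.33% in DPBS, Control-ASO and Upf3b-ASO livers.

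**Figure D2:**
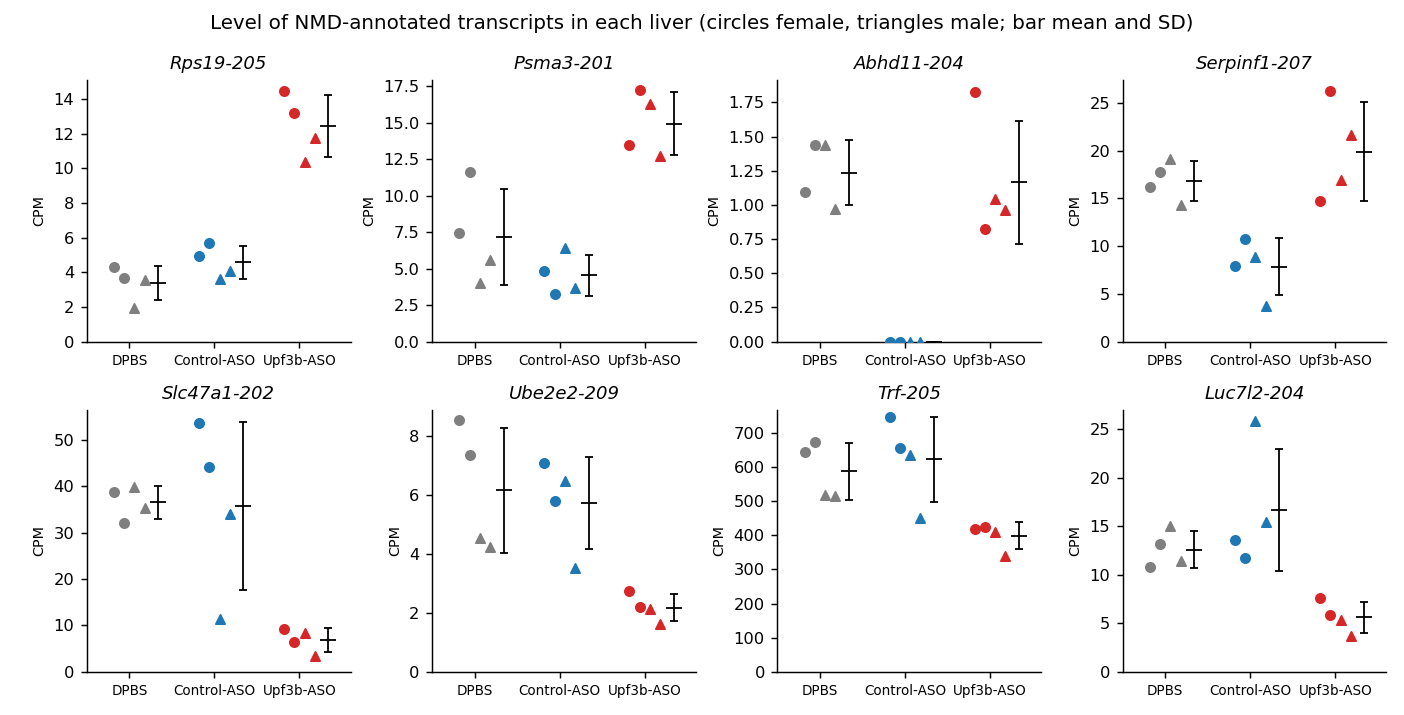
Level in CPM (y axis) of 8 NMD-annotated transcripts in each liver of the DPBS (grey), Control-ASO (blue) and Upf3b-ASO (red) groups, circles for females and triangles for males, with the mean and SD of 4 livers. Rps19-205 and Psma3-201 lie above the other 8 livers in the treated group, Abhd11-204 and Serpinf1-207 are low in Control-ASO livers, and the lower 4 transcripts lie below the other livers in the treated group.

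Counts of transcripts whose livers did not overlap gave a similar balance. In 26 NMD-annotated transcripts (1.28%) all 4 Upf3b-ASO livers were above the other 8, and in 24 (1.18%) all 4 were below, against 1.74% and 1.75% of all transcripts tested. Without Control-ASO replicate 3 the counts were 46 and 31 (2.26% and 1.52%), against 2.35% and 3.06% of all transcripts. Against Control-ASO alone 80 were higher and 59 lower (3.93% and 2.90%, background 3.88% and 3.78%), against DPBS alone 101 and 61 (4.96% and 3.00%, background 4.67% and 5.35%), and between Control-ASO and DPBS 31 and 34 (1.52% and 1.67%, background 1.23% and 1.65%). Among the 26 higher ones, the parent gene was itself called higher in 7, as for Coq8a-211 (coenzyme Q synthesis, 21.8 ± 3.35 CPM in treated against 9.20 ± 4.05 in Control-ASO and 11.2 ± 1.87 in DPBS livers) and Erp29-202 (an endoplasmic reticulum chaperone, 8.92 ± 0.42 against 6.53 ± 0.55 and 6.69 ± 0.48). The parent gene of Hyi-202, a transcript of hydroxypyruvate isomerase, did not pass the test (log2 0.12 ± 0.20, edgeR adjusted p = 0.76). Hyi-202 itself was at 46.5, 52.4, 47.4 and 44.9 CPM in treated livers and at 17.3 to 32.9 CPM in the other 8, just missing the threshold (log2 1.02 ± 0.20, edgeR adjusted p = 0.0509). Among the 24 lower ones, the parent gene was called lower in 16. The matching shares over transcripts of all biotypes were not counted. The 7 and 16 therefore describe these transcripts only and set them apart from no others.

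Relative to their genes, more NMD-annotated transcripts stood apart upward than downward in treated livers. The share of parent-gene TPM could be followed for 1951 NMD-annotated transcripts in genes with at least 2 tested transcripts. All 4 Upf3b-ASO livers had a higher share than the other 8 in 17 (0.871%) and a lower share in 3 (0.154%), against 0.472% and 0.587% of all 27944 such transcripts. Without Control-ASO replicate 3 the counts were 26 (1.33%) and 5 (0.256%), against 0.684% and 0.898%. Against Control-ASO alone 58 were higher and 29 lower (2.97% and 1.49%, background 1.89% and 2.34%), and against DPBS alone 56 and 34 (2.87% and 1.74%, background 2.1% and 2.52%). These 2 comparisons share the Upf3b-ASO livers. Between Control-ASO and DPBS livers, 30 were higher and 30 lower (1.54% each, background 1.44% and 1.52%). No p-value is given for these counts, which were chosen after the data were seen.

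The 17 included Rps19-205, Psma3-201, Hyi-202 and Rdh16-202, and 7 of them had a mean count under 50. Rdh16 encodes a retinol dehydrogenase of the liver. The level of Rdh16-202 overlapped between groups, with 10.2, 11.3, 12.3 and 9.87 CPM after Upf3b-ASO, 15.7, 19.3, 5.01 and 15.5 CPM after Control-ASO and 15.7, 11.6, 13.7 and 12.3 CPM after vehicle (log2 -0.31 ± 0.32, edgeR adjusted p = 0.748). Without Control-ASO replicate 3 all treated livers lay below the Control-ASO ones (log2 -0.61 ± 0.14, edgeR adjusted p = 0.0682). The gene fell around Rdh16-202 (log2 -2.36 ± 0.22, edgeR adjusted p = 0.000183), so that the share of Rdh16-202 reached 37.6, 37.9, 34.8 and 51.4% in treated livers, where Control-ASO livers had 8.52, 9.86, 6.08 and 11.1% and DPBS livers 8.55, 6.52, 11.4 and 8.81%. A second NMD-annotated transcript of the gene, Rdh16-203, was at 2.86, 3.15, 1.04 and 0 CPM in treated livers and at 7.30 to 19.8 CPM in the other 8, a difference that did not pass the test (log2 -3.17, edgeR adjusted p = 0.0912). Opposite shifts within a gene also occurred in Naa60, which encodes an N-terminal acetyltransferase of the Golgi. The share of Naa60-202 was 18.3 ± 3.61% in treated and 7.16 ± 4.32% in Control-ASO livers, and that of Naa60-201 was 21.8 ± 4.70% and 37.8 ± 3.64%, while the gene differed by -0.03 (log2, edgeR adjusted p = 0.944).

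Others of the 17 were Ptgr2-202 (prostaglandin reductase, 16.5 ± 1.90% of its gene in treated, 4.72 ± 4.24% in Control-ASO and 5.68 ± 0.80% in DPBS livers), Cep57-206 (a centrosomal protein, 15.9 ± 4.31%, 6.01 ± 1.34% and 6.94 ± 1.39%) and Gm28557-203 (a predicted gene, 58.6 ± 6.66%, 27.0 ± 6.89% and 29.4 ± 4.12%). Uggt1-204, from the gene of an endoplasmic reticulum glycosyltransferase, held 15.2 ± 0.96% of its gene in treated livers against 10.7 ± 2.16% and 10.6 ± 1.46%. In an edgeR test of each transcript with its parent-gene count as offset, added after the data were seen, Rdh16-202 (log2 2.13, adjusted p = 0.017) and Abhd11-204 (adjusted p = 0.0372, with Control-ASO livers at or near 0) were the NMD-annotated transcripts called against Control-ASO, both higher. Leaving out 1 liver left 0 or 1 of these calls. This is 0.103% of 1951, with a background of 0.0143% higher and 0.0179% lower. Rps19-205 reached 1.16 (edgeR adjusted p = 0.0923) in that test. Against DPBS it called 3 higher (0.154%), Rps19-205, Chpt1-207 and Rdh16-202, and 0 lower, with a background of 0.0322% and 0.0215%, and between Control-ASO and DPBS it called 0 in either direction, as for 0.0% of all. The usage test chosen at first, diffSpliceDGE of edgeR, made too many false calls when checked to be relied on. It called 6 higher and 5 lower against Control-ASO (background 0.136% and 0.168%), 4 and 2 against DPBS (background 0.068% and 0.0895%) and 4 and 4 between Control-ASO and DPBS (background 0.0752% and 0.0895%), and Serpinf1-207 is the 1 transcript named from it.

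**Figure D3:**
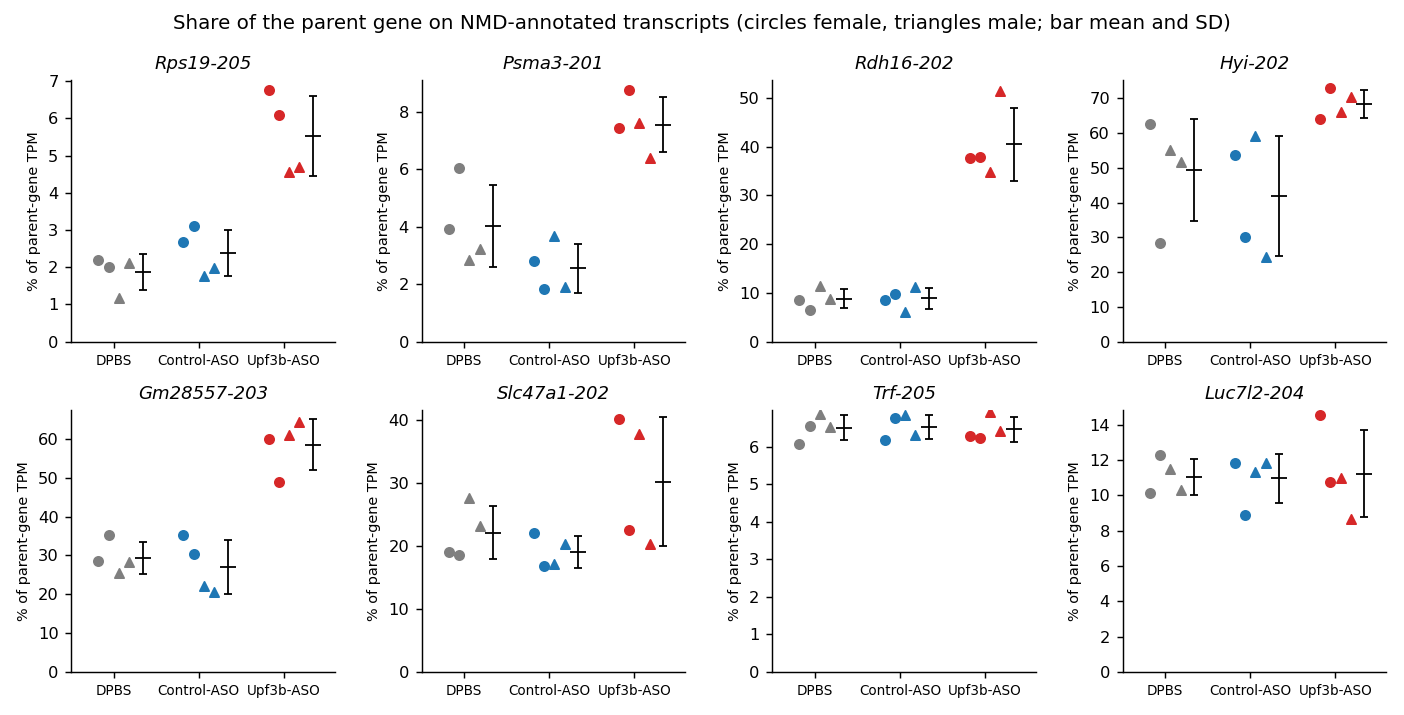
Share of parent-gene TPM in percent (y axis) held by 8 NMD-annotated transcripts in each liver, with groups, symbols and error bars (SD, n = 4) as in the plot of CPM. The first 5 panels lie higher in the treated livers, and the shares of Trf-205 and Luc7l2-204, whose genes fell, overlap between groups.

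Summed over all 5022, NMD-annotated transcripts took 1.52 ± 0.06% of the counts of a DPBS liver, 1.52 ± 0.11% of a Control-ASO liver and 1.63 ± 0.07% of an Upf3b-ASO liver (SD, n = 4), and the groups overlapped. Of TPM they took 1.92 ± 0.29%, 1.88 ± 0.25% and 1.86 ± 0.25%. Transcripts with a known biotype held 79.7 to 95.9% of the TPM of a liver, which limits these shares of TPM. Without the 10 transcripts of highest mean TPM, which include Trf-205 and Serpinc1-204, the share of counts was 1.30 to 1.39% in treated livers and 1.15 to 1.27% in the other 8. Within the 3192 genes that have both an NMD-annotated and a coding transcript, the former held 11.3 ± 0.19% of the counts in treated livers, against 10.4 ± 0.34% in Control-ASO and 10.3 ± 0.28% in DPBS livers, with treated livers between 11.2 and 11.6% and the others between 9.89 and 10.7%. The sum of the NMD-annotated transcripts of these genes did not stand apart, at 14919 ± 313, 15176 ± 595 and 14650 ± 243 CPM in the same order. The sum of all their transcripts was lower in treated livers, at 131471 ± 1961 CPM against 146534 ± 5228 and 142811 ± 6094 CPM. Trf alone held 11428 to 14745 CPM in treated livers and 15562 to 25809 CPM in the others. Without the 10 of these genes with the most counts, the share was 12.4 ± 0.17% in treated livers against 11.7 ± 0.21% and 11.5 ± 0.25%.

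**Figure D4:**
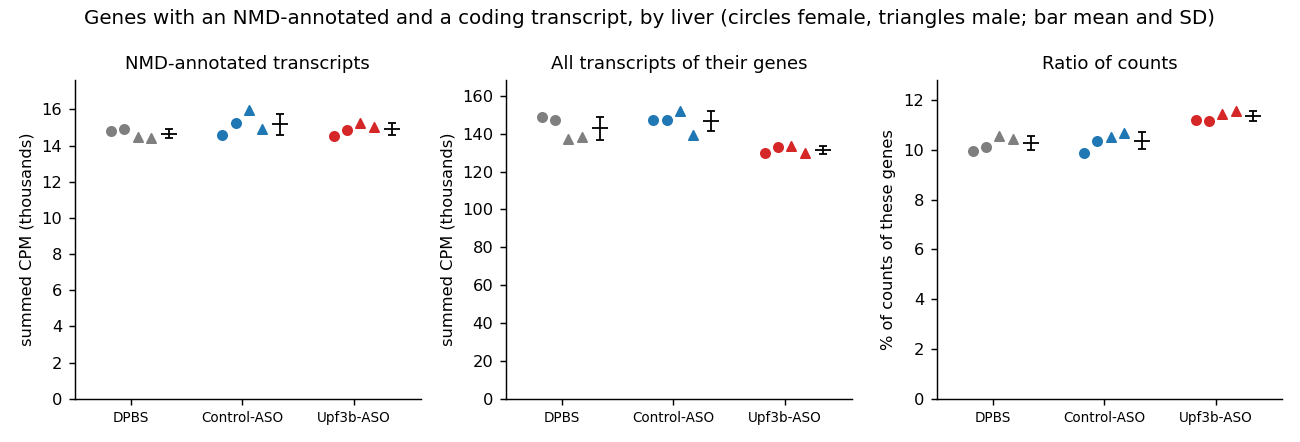
Sums over the 3192 genes with an NMD-annotated and a coding transcript in each liver (symbols, mean and SD of 4 livers as in the other plots by liver): CPM of NMD-annotated transcripts (left), CPM of all transcripts of these genes (middle) and the ratio in percent (right). The left sums overlap between groups, the middle ones are lowest in Upf3b-ASO livers and the ratio is highest there.

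Several of the most abundant NMD-annotated transcripts were measured closely enough to bound a rise. In 81 of 2035 the 95% interval of the log2 fold change against Control-ASO lay within -0.5 to 0.5, and in 433 within -1 to 1. The 8 of highest count among the 81 were transcripts of antithrombin (Serpinc1-204), alcohol dehydrogenase (Adh1-202), the scaffold protein Grip2 (Grip2-204), cyclophilin A (Ppia-201), the RNA helicase Ddx5 (Ddx5-208), cytochrome b5 (Cyb5a-201), Serpinf1 (Serpinf1-208) and a subunit of mitochondrial ATP synthase (Atp5f1-203). Ppia-201, which held 98.6% of the TPM of its gene, stood at 293, 342, 353 and 359 CPM after Upf3b-ASO, 287, 279, 315 and 358 CPM after Control-ASO and 327, 311, 279 and 311 CPM after vehicle. The groups overlapped, and the log2 difference from Control-ASO was 0.12 (95% interval -0.10 to 0.34). Ddx5-208 stood at 246 ± 20.9 CPM in treated, 236 ± 33.3 CPM in Control-ASO and 242 ± 30.2 CPM in DPBS livers, a log2 difference of 0.06 (-0.23 to 0.35). Serpinc1-204 was at 565 ± 66.5 CPM against 673 ± 127 and 691 ± 121 CPM, a log2 difference of -0.24 (-0.42 to -0.06, edgeR adjusted p = 0.256), with 40.7 to 41.1% of its gene on average in each group.

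The remaining abundant transcripts, by TPM, were those of peroxiredoxin 6 (Prdx6-208), a complex I subunit (Ndufa3-204) and ribosomal protein L6 (Rpl6-208). Prdx6-208 was at 363 ± 42.1 CPM in treated, 309 ± 52.3 CPM in Control-ASO and 311 ± 12.97 CPM in DPBS livers (log2 0.23, 95% interval -0.06 to 0.51). Ndufa3-204 held 92.9% of the TPM of its gene and differed by -0.07 (-0.31 to 0.17), and Rpl6-208 held 46.6% and differed by -0.08 (-0.30 to 0.14). Of the 8 transcripts of highest mean TPM, Trf-205 was the 1 that passed the test. Ppia and the ribosomal protein genes have many near-identical processed copies, so the level of such transcripts is uncertain.

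**Figure D5:**
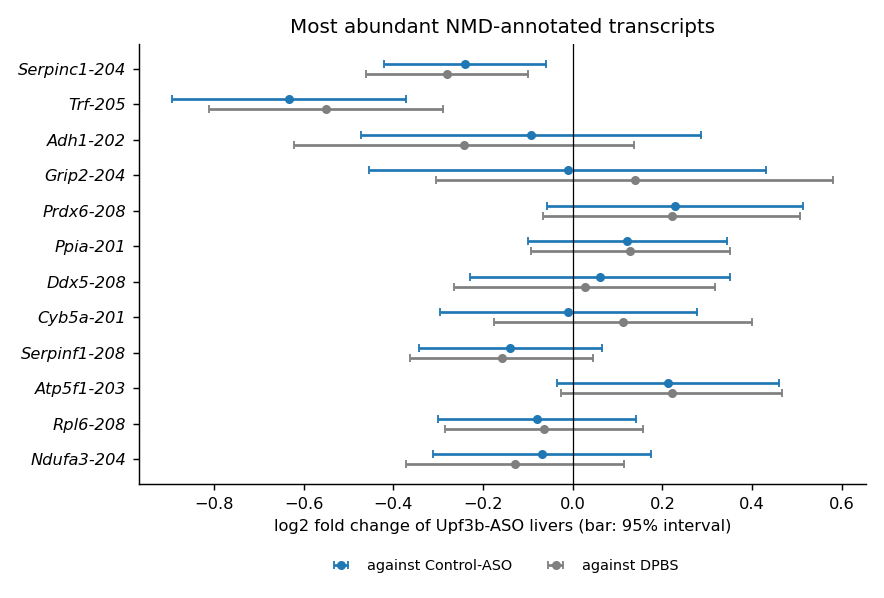
Log2 fold change (x axis) of Upf3b-ASO livers against Control-ASO (blue) and DPBS (grey) for 12 abundant NMD-annotated transcripts, with points for the fitted value and bars for its 95% interval. Both intervals of Trf-205 and Serpinc1-204 lie below 0, and those of the other 10 transcripts include 0.

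The annotated structure of the transcripts separated them little. Among tested NMD-annotated transcripts the stop codon lay a median of 415 bases (quartiles 195 and 937) before the last junction. A median of 3 junctions, the last included, lay downstream of the stop codon. In 1920 of 1933 with an annotated distance the stop codon lay more than 50 bases before the last junction. The biotype itself rests on such a minimum distance, so this count describes the choice of transcripts and is no result. The median log2 fold change against Control-ASO was 0.05 where the stop codon fell in sequence that a coding transcript of the gene translates (1145 tested), 0.02 where it fell outside the exons of coding transcripts (595), 0.29 where it fell in their untranslated exon parts (33) and -0.07 where it was shared with a coding transcript (134). By junctions after the stop codon the medians were -0.02 for 1 junction (392 tested), 0.15 for 2 (361), 0.02 for 3 (272), 0.13 for 4 (185), 0.06 for 5 (110) and 0.00 for 6 or more (609), in no order. By coding length they were 0.06, 0.06, 0.05 and -0.08 in 4 bins from the shortest to the longest. Retained_intron transcripts of the same genes had a median of -0.18 and protein-coding ones of -0.01. Against DPBS, the stop in coding sequence, outside exons, in untranslated parts and the shared stop gave 0.11, 0.12, 0.11 and -0.07, retained_intron transcripts -0.01 and protein-coding ones -0.04. Between Control-ASO and DPBS livers the retained_intron median was 0.16.

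Among splicing regulators 1 NMD-annotated transcript was called, and it was lower. Of 25 tested NMD-annotated transcripts of SR proteins and related factors, which guide splice site choice, 0 were called higher and 1, Luc7l2-204, lower by edgeR against Control-ASO (1 and 3 at an unadjusted p under 0.05), with a median log2 fold change of -0.19 against -0.04 for all transcripts. This median was 0.07 without Control-ASO replicate 3 and 0.10 against DPBS, where all transcripts had -0.01, so its direction depended on the control livers. Srsf6-201 was at 15.9, 20.7, 15.8 and 19.7 CPM in treated and 10.9, 10.8, 9.28 and 15.4 CPM in Control-ASO livers, but at up to 15.8 CPM in DPBS livers (log2 0.63 ± 0.19, edgeR adjusted p = 0.205). Son-208 was at 57.7 ± 4.46 CPM against 62.5 ± 7.24 and 61.8 ± 7.62 CPM. Of 33 transcripts of hnRNP and related RNA-binding proteins and 24 of spliceosome components 0 were called by edgeR in either direction. At an unadjusted p under 0.05, 3 of the former were higher and 2 lower and 1 of the latter was lower, where 5.46% of all transcripts were higher and 7.01% lower. The medians were 0.17 and 0.04 (0.26 and 0.27 without Control-ASO replicate 3), with 19 of 33 and 15 of 24 above 0. Against DPBS the median was 0.12 for each, with 23 of 33 and 20 of 24 above 0. Of all transcripts 47.1% were above 0 against Control-ASO and 49.2% against DPBS. Of all tested NMD-annotated transcripts these shares were 52.0% and 56.9%. Hnrnpu-206, the most abundant of the former, was at 80.0 ± 4.89 CPM in treated, 72.1 ± 7.14 CPM in Control-ASO and 75.7 ± 10.8 CPM in DPBS livers.

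Ribosomal protein and ubiquitin or proteasome genes each held 1 of the 3 called rises. Among 10 transcripts of cytosolic ribosomal proteins Rps19-205 was called higher and none lower by edgeR, and the median was 0.28 against Control-ASO (0.82 without its replicate 3, when Rpl12-201 was called higher too) and 0.87 against DPBS. The median of these 10 was also raised between Control-ASO and DPBS livers, at 0.56. Of 46 transcripts of ubiquitin and proteasome genes Psma3-201 was called higher and Ube2e2-209 lower, with a median of 0.15. At an unadjusted p under 0.05, 1 of the 46 was higher and 5 lower, where 5.46% of all transcripts were higher and 7.01% lower. Of 21 transcripts of translation factors and aminoacyl-tRNA synthetases 0 were called by edgeR (3 unadjusted, all higher). Eif4a2-204, from the gene of a translation initiation helicase, was at 47.2, 51.0, 35.5 and 47.0 CPM in treated, 22.8, 17.1, 36.9 and 8.02 CPM in Control-ASO and 8.93 to 21.2 CPM in DPBS livers. Control-ASO replicate 3 overlapped the treated livers, and the difference missed the threshold (log2 1.07 ± 0.40, edgeR adjusted p = 0.312). It passed without that liver (1.74 ± 0.25, edgeR adjusted p = 0.0106).

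Metabolic and secretory genes of hepatocytes showed 1 call. Of 15 NMD-annotated transcripts of secreted liver proteins Trf-205 was called lower and 0 higher by edgeR (2 higher and 3 lower unadjusted), with a median of -0.24. Of 22 transcripts of xenobiotic metabolism, 11 of oxidative phosphorylation, 10 of fatty acid and cholesterol metabolism and 4 of polyamine metabolism 0 were called by edgeR. At an unadjusted p under 0.05, 1, 1, 2 and 1 were higher and 2, 0, 1 and 0 lower in this order. Of all transcripts 5.46% were higher and 7.01% lower at that threshold, which is also the background of the secreted list. The medians of the 4 lists were -0.15, 0.10, 0.34 and 0.13, or -0.11, 0.14, 0.12 and 0.69 without Control-ASO replicate 3. Without that liver Cyp3a59-202 of the xenobiotic list was called lower (log2 -1.87 ± 0.37, edgeR adjusted p = 0.0365) and Serpinf1-207 of the secreted list higher. Cyp3a25-203, of a cytochrome P450 gene with close relatives, was at 158, 141, 200 and 144 CPM in treated and 117, 134, 99.8 and 142 CPM in Control-ASO livers, which nearly separated (log2 0.38 ± 0.15, edgeR adjusted p = 0.321). Atp5f1-203 was at 148 ± 18.5 CPM against 127 ± 14.6 CPM, and Azin1-202, from a regulator of polyamine synthesis, at 24.7 ± 3.16 CPM against 28.5 ± 7.97 CPM. The 2 NMD-annotated transcripts of integrated stress response genes were too scarce to test. The lists were chosen with earlier results of these data known, and their counts and medians describe them without a test.

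NMD factors themselves had few NMD-annotated transcripts. Of 7 in the genes of NMD and exon junction complex factors 3 were tested and 0 called by edgeR (1 lower unadjusted). Of all transcripts 7.01% were lower at an unadjusted p under 0.05. Smg1-204, from the gene of the kinase that phosphorylates UPF1, was at 23.3, 17.9, 26.9 and 17.7 CPM in treated and 31.5, 38.1, 97.5 and 29.9 CPM in Control-ASO livers, the highest in Control-ASO replicate 3, but DPBS livers, at 19.7 to 29.6 CPM, overlapped the treated ones (log2 -1.14 ± 0.33 against Control-ASO, edgeR adjusted p = 0.186, and -0.28 ± 0.33 against DPBS, 0.902). Without Control-ASO replicate 3 the difference from Control-ASO was -0.65 ± 0.19 (edgeR adjusted p = 0.141). Smg5-202 was at 0 in 1 DPBS and 1 Control-ASO liver and at most at 3.36 CPM. Smg6-202, from the gene of the endonuclease, was listed at 0 in 7 of 12 livers and not tested, while its gene was lower in treated livers (log2 fold change -1.67, edgeR adjusted p = 4.09e-05).

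Against DPBS livers the picture was similar in size. Of 2035 NMD-annotated transcripts 3 (0.147%) were called higher and 2 (0.0983%) lower by edgeR, against 0.281% and 0.619% of all transcripts, and the median log2 fold change was 0.09 against -0.01 for all. At an unadjusted p under 0.05, 98 (4.82%) were higher and 79 (3.88%) lower, against 4.46% and 5.57% of all. The 3 higher ones were Rps19-205, Brd2-207 and Rit1-204. Brd2-207, from the gene of a chromatin reader of the bromodomain family, stood at 46.1, 40.1, 38.3 and 48.5 CPM in the treated group, 36.2, 27.1, 40.9 and 29.2 CPM under Control-ASO and 20.4, 16.9, 28.3 and 27.4 CPM under vehicle. The treated livers were above all DPBS livers and overlapped the Control-ASO ones, and the log2 fold changes were 0.92 ± 0.17 and 0.38 ± 0.17 (edgeR adjusted p = 0.0401 and 0.396). Rit1-204, from a small GTPase gene, was at or under 0.267 CPM in DPBS livers, at 1.23 to 2.96 CPM in Control-ASO and at 1.24 to 4.66 CPM in Upf3b-ASO livers, so that both ASO groups were above DPBS (edgeR adjusted p = 0.0411 for Upf3b-ASO and 0.849 for Control-ASO). The call of Rit1-204 held in 1 of 8 fits without a liver. The 2 lower ones were Slc47a1-202 (log2 -2.46 ± 0.41) and Ube2e2-209 (-1.46 ± 0.24, edgeR adjusted p = 0.0239 and 0.0234).

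Between Control-ASO and DPBS livers 0 NMD-annotated transcripts were called by edgeR, as were 0.0% of all transcripts, with 52 (2.56%) higher and 41 (2.01%) lower at an unadjusted p under 0.05, against 2.44% and 1.92% of all. DESeq2 called 4 higher and 4 lower (0.202% each, background 0.204% and 0.236%), and limma on log2(TPM + 0.1) called 1 lower (0.0491%, background 0.00289% higher and 0.00579% lower). Their median log2 difference was 0.03, against 0.01 for all transcripts. Abhd11-204, at least 7.13-fold higher in DPBS livers at a floor of 3 counts per Control-ASO library (edgeR adjusted p = 0.314), and Serpinf1-207, with a log2 difference of -1.13 (0.955), did not pass the test.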

How the data were processed

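The authors prepared TruSeq libraries from total liver RNA and quantified transcripts with Salmon 0.7.2 against Ensembl cDNA of GRCm38 (GRCm38.p4 and bcl2fastq 2.17.1.14 per the submitters' processing notes). The deposited files give an estimated count and a TPM for each transcript and liver, and TPM as deposited is scaled by the authors per transcript length to a constant sum. Biotypes, symbols and coordinates were joined from GENCODE M21 by transcript identifier, which matched 98.0% of transcripts. These held 97.5 to 99.2% of the counts and 79.7 to 95.9% of the TPM of a liver. In 224 NMD-annotated transcripts the length in the files differed from the annotation. Estimated counts were rounded, and transcripts with a mean of at least 10 were tested with the edgeR 4.0.16 quasi-likelihood test (R 4.3.3) on TMM-normalized counts, with all 12 livers, sex as covariate and Benjamini-Hochberg adjustment over all 34548 transcripts. CPM is the count scaled by the TMM-adjusted library size. Genes were tested alike on summed counts. Differential usage was planned with edgeR's diffSpliceDGE, which made many false calls when tested on simulated data, so nothing rests on it. A test with the parent-gene count as offset was added afterwards, and both it and the abundance test made few false calls there. The simulated log2 changes of 1 and 2 were set in transcripts with a mean count of at least 50. The abundance test recovered 15% and 58% of them and the offset test 2% and 30%, so both missed most changes of 1. Named transcripts were ones called for level, or for usage by diffSpliceDGE, with non-overlapping livers, by size of change, the 8 of highest TPM, the 8 most counted with an interval within -0.5 to 0.5, called members of each gene list and all of NMD factor genes, and any other is named after its values were seen, with up to 4 examples a list by count. The NMD-annotated set, the gene lists and the tests were chosen with earlier results of these data known. Alternatives used limma 3.58.1, DESeq2 1.42.0, other filters and leaving out livers. Upf1-ASO livers were not analysed here.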

Additional observations from a re-analysis of the deposited data

Results flagged for a closer look

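The check covered 95 groups of 4 livers, over the 26 transcripts named by rule and over totals and shares of NMD-annotated transcripts and their genes. A liver's distance from the nearest other, divided by the range of the group, exceeded Dixon's 95% critical value in 7. All 7 were groups of single transcripts, and chance gives about 1 in 20. In Control-ASO replicate 3, Adh1-202 was the lowest of its group at 289 CPM (others 554 to 605) and Smg1-204 the highest at 97.5 CPM (others 29.9 to 38.1). Upf3b-ASO replicate 1 had the lowest Cyb5a-201 of its group, 148 CPM (others 181 to 186). Upf3b-ASO replicate 3 had the lowest Ddx5-208, 215 CPM (others 253 to 259), the highest Rit1-204, 4.66 CPM (others 1.24 to 1.64), and the only counts of Smg6-202 in its group, 0.501 CPM. DPBS replicate 1 had the highest Rit1-204 of its group, 0.267 CPM (others up to 0.0382).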

How the results depend on the processing

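The number of NMD-annotated transcripts called against Control-ASO, 7, was 1 at an adjusted p under 0.01, 3 without a filter on counts, 21 at a mean count of at least 50 (9 higher, 12 lower, 1.17% and 1.56% against 1.24% and 1.93% of all transcripts), 4 without the sex covariate, 1 with only the 2 groups compared, 14 with limma on log2(TPM + 1) (10 higher, 4 lower, 0.491% and 0.197% against 0.246% and 0.339%) and 77 with DESeq2 (40 higher, 37 lower, 2.47% and 2.29% against 2.58% and 3.25%). The 1, 3, 4 and 1 comprised 1, 2, 2 and 1 higher (0.0491%, 0.0453%, 0.0983% and 0.0491% against 0.0347%, 0.0732%, 0.156% and 0.0318%). They comprised 0, 1, 2 and 0 lower (0%, 0.0226%, 0.0983% and 0% against 0.139%, 0.149%, 0.301% and 0.0521%). Leaving out a liver gave 2 to 28, the 28 without Control-ASO replicate 3 and the 2 without Control-ASO replicate 2 or Upf3b-ASO replicate 2. The 28 were 13 higher and 15 lower (0.639% and 0.737% against 0.886% and 1.59%). Against DPBS the 5 calls became 1, 2, 10, 3, 25, 10 and 52 over the settings above in their order, and 1 to 5 without a liver. The 10 at a mean count of at least 50 were 6 higher and 4 lower (0.782% and 0.522% against 0.955% and 1.75%). The 10 with limma were 4 higher and 6 lower (0.197% and 0.295% against 0.2% and 0.463%). The 1, 2 and 3 comprised 1, 1 and 2 higher (0.0491%, 0.0226% and 0.0983% against 0.0405%, 0.0573% and 0.151%). Of the 25, 16 were higher and 9 lower (0.786% and 0.442% against 0.871% and 1.36%), and of the 52 with DESeq2 28 and 24 (1.68% and 1.44% against 1.89% and 2.52%). For Control-ASO against DPBS, 0 became 1 with limma on log2(TPM + 0.1) and 8 with DESeq2. The cause was not tested.

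Rps19-205 kept its call against Control-ASO in 10 of 11 settings and in 8 of 8 fits without a liver, whereas Psma3-201 kept it in 6 of 11 and 1 of 8, Slc47a1-202 and Luc7l2-204 likewise, Ube2e2-209 in 7 of 11 and 2 of 8, and Trf-205 in 4 of 11 and 2 of 8. Abhd11-204 kept it in 8 of 9 and 8 of 8, and against DPBS Brd2-207 kept it in 5 of 11 and 1 of 8 and Rit1-204 in 4 of 9 and 1 of 8.

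Usage calls by diffSpliceDGE, 11 against Control-ASO, were 4 at an adjusted p under 0.01, 1 at a mean count of at least 50, 4 with 2 groups, 2 with the parent-gene offset and 2 with limma on the log2 odds, and 6 to 21 without a liver by diffSpliceDGE. The 2 offset calls became 0 in 5 of 8 fits without a liver and 1 in the other 3, and the 3 against DPBS became 0 in 3 and 1 in 5. Against DPBS, 6 became 2, 0, 3 with the offset, 1 with limma and 10 without the sex covariate (2 to 7 without a liver, 0 or 1 with the offset), and for Control-ASO against DPBS 8 became 5, 0, 0 with the offset and 1 with limma (3 to 17, and 0 with the offset).

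The replicate numbers were not treated as pairs, since livers of the same number deviated together no more (mean r 0.14, lowest 0.0477) than other livers of the same sex (0.138). With the replicate block in place of sex, abundance calls were 3 against Control-ASO and 2 against DPBS, usage calls 6 against Control-ASO, and offset calls with the block 0 in each comparison.

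The difference in the share on NMD-annotated transcripts between Upf3b-ASO and Control-ASO livers, -0.0214 points of TPM, was 0.988 points as a share of the counts of genes with a coding transcript. Without Control-ASO replicate 3, transcripts higher than all other livers rose from 26 to 46 by CPM and from 17 to 26 by share, and those lower by share from 3 to 5.

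Uncalled log2 fold changes near 0 changed sign. Against Control-ASO, Cyb5a-201 (-0.01) was 0.0021 without a filter and 0.026 and 0.027 with limma (-0.087 to 0.085 without a liver). Grip2-204 (-0.01) was 0.0027 without a filter, 0.013 with the block and 0.017 with either limma (-0.10 to 0.13 without a liver). Rit1-204 (0.08) was -0.026 without sex, -0.021 with the block, -0.058 with 2 groups and -0.065 and -0.13 with limma (-0.69 to 0.46 without a liver). Without a liver, Adh1-202 ranged from -0.25 to 0.084, Ddx5-208 from -0.035 to 0.14, Ndufa3-204 from -0.12 to 0.014 and Smg5-202 from -0.18 to 1.09. Against DPBS, Smg5-202 (-0.39) was 0.88 with the block and 0.52 with limma on log2(TPM + 0.1) (-0.77 to 0.65 without a liver), Ddx5-208 was -0.0099 and -0.010 with limma (-0.028 to 0.10), and Abhd11-204 ranged from -0.37 to 0.083.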
